A study of Homo sapiens with 6 samples.

Results

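The genes described here encode the 2 mTOR kinase complexes and the proteins that switch them: MTOR, RPTOR, RICTOR, MLST8, DEPTOR, AKT1S1, TSC1, TSC2, RHEB and DEPDC5. They were taken by gene symbol, a rule that uses no measured value, and make up 10 of the 28278 genes listed in the count files. All 10 passed the filter on low counts and were tested, among 15307 tested genes. The RNA came from HT29 cells, a human colorectal adenocarcinoma line with epithelial morphology, collected 48 h after transfection. The study asked which genes change when ALDOA, the glycolytic enzyme aldolase A, is silenced. In the 3 siALDOA libraries (genotype label ALDOA KD) the cells had received an siRNA against ALDOA, and in the 3 siControl libraries (genotype label WT) a scrambled siRNA. The labels call the libraries biological replicates but do not say whether they came from separate cultures, so p-values measure the spread between these libraries. The labels list 1 siRNA for ALDOA and do not list untransfected cells, so loss of ALDOA and other effects of its siRNA cannot be told apart.

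mTOR is a protein kinase that promotes growth when nutrients and growth factors are present. In mTORC1 it works with RPTOR and drives protein synthesis while holding back autophagy, and in mTORC2 it works with RICTOR and phosphorylates AKT. mTORC1 is switched on at the lysosome by the GTPase RHEB, which the TSC1-TSC2 complex turns off, and amino acids act through the Rag GTPases, which the GATOR1 complex of DEPDC5, NPRL2 and NPRL3 turns off. AMPK, the energy sensor of the cell, is known to restrain mTORC1 by phosphorylating TSC2 and RPTOR.

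DEPDC5 and TSC1, which both restrain mTORC1, were the members whose mRNA rose with siALDOA. Their promoters are shown for that reason, as the 250 bases before and 50 after the RefSeq start on GRCh38.p14, with matches to the 10 searched motifs in capitals. The capitals mark the GC box GGGCGG read on either strand. The TSC1 window lies on the minus strand at chr9:132944567-132944866, and the DEPDC5 window, the first of 3 listed for the gene, on the plus strand at chr22:31753718-31754017. Both RefSeq starts lie inside the GENCODE span of the gene, which begins upstream of them.
TSC1: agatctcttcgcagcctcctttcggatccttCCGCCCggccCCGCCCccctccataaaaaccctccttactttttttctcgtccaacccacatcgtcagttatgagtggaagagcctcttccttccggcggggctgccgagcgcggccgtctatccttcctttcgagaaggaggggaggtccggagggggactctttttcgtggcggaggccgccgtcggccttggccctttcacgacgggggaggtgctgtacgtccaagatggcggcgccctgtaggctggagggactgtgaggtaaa
DEPDC5: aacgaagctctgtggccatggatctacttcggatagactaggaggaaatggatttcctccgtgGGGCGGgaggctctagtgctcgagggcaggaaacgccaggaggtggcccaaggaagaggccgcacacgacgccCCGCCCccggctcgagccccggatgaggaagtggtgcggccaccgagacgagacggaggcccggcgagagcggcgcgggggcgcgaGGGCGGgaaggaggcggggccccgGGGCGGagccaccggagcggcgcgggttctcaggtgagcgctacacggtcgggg
The TSC1 window held the GC box at positions -219 and -209 from the start, and the DEPDC5 window at -187, -114, -28 and -4. Promoter windows were searched for 7 of the 10 genes (MTOR, RICTOR, RHEB, TSC1, TSC2, RPTOR and DEPDC5), 10 windows in all. The promoters of the other members were not searched, so nothing is said about their motifs. The GC box was found in 9 of the 10 windows, and in 45% of the 35116 promoters of the same length. By gene it was found in 6 of these 7, RPTOR being the exception. Windows of the same gene overlap each other. The windows with the GC box held 59.3% to 76.3% G and C, against a median of 58.7% over all promoters. MTOR, RHEB and RICTOR carried the CCAAT box (CCAAT), found in 34.6% of all promoters. TSC2 carried the E-box CACGTG, found in 7.26%, and the ETS motif CCGGAAGT, found in 4.14%. RPTOR held the letters of the TATA box, TATAAA, at position -238 from the start. They were found at any position in 11.5% of all promoters. The CLEAR motif of TFEB and TFE3, which contains the E-box, was in none of the 10 windows and in 0.353% of all promoters. The cyclic AMP response element TGACGTCA (1.85% of all promoters), the ATF4 response element TGATGCAAT (0.236%), the NRF1 motif (1.24%) and the interferon-stimulated response element core (3.57%) were not in these windows either.

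The libraries held between 27277538 and 33237914 counts on genes, and the least abundant member, DEPDC5, had between 251 and 368 counts in each. ALDOA, the target of the siRNA, was at 283, 305 and 280 CPM in the siALDOA libraries and at 592, 637 and 668 CPM in the siControl libraries, a change of -1.13 on the log2 scale (standard error 0.060, edgeR adjusted p = 6.95e-11). Ribosomal RNA genes took between 7.71% and 13.1% of the counts with siALDOA and between 8.15% and 17.4% with siControl. Without these genes in the fit, TSC1 changed by 0.23 and DEPDC5 by 0.46 on the log2 scale, with an adjusted p of 0.0258 and 0.0151. Of 10 colon epithelial markers, 9 had counts, with a sum between 8287 and 8978 CPM with siALDOA and between 8625 and 9976 with siControl. Of these, KRT18 was lower with siALDOA by -0.28 (adjusted p = 0.0152), and its part in the results was not tested. Fibroblast markers summed to at most 4.51 CPM and markers of blood and endothelial cells to at most 15.9 CPM in any library, and PTPRC, which defines white blood cells, had at most 1 count. In all 6 libraries 7308 genes had 0 counts, among them LGALS4, an abundant gene of colon epithelium, so a gene listed at 0 is not read as silent.

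At the level of the mRNA, the 10 genes differed far more from each other than between siALDOA and siControl. The normalised read count was divided by the length of the MANE transcript, the reference transcript of each gene in GENCODE release 44, which gives CPM per kb. RHEB, the small GTPase that activates mTORC1, had the highest level, between 82.6 and 92.6 CPM per kb over the 6 libraries, followed by AKT1S1, which encodes the mTORC1 inhibitor PRAS40, between 63.6 and 81.7. The ranges of RHEB and AKT1S1 did not overlap. MLST8, the subunit shared by both complexes, came next with 33.6 to 40.0 CPM per kb. TSC2 (12.3 to 13.2), MTOR (11.5 to 13.7), RICTOR (11.3 to 13.2) and DEPTOR (10.5 to 13.2 CPM per kb) had overlapping ranges, although TSC2 was above DEPTOR within each of the 6 libraries. RPTOR (6.79 to 7.78) and TSC1 (6.17 to 7.75 CPM per kb) also overlapped with each other and lay below those 4 genes. DEPDC5 was the least abundant of the 10, at 1.23 to 2.02 CPM per kb. The length used is that of 1 transcript per gene, and the isoforms present in HT29 cells were not measured.

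**Figure D1:**
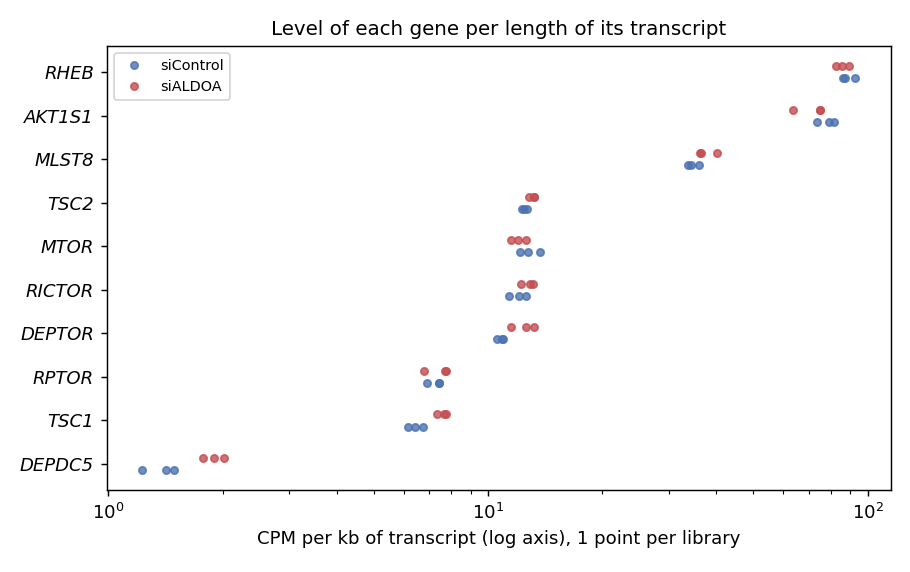
Level of each gene per kb of its reference transcript (log axis), with 1 point per library and the siControl and siALDOA libraries in separate rows of points. RHEB and AKT1S1 lie highest, TSC2, MTOR, RICTOR and DEPTOR share a range near 12 CPM per kb, and DEPDC5 lies lowest, with its 3 siALDOA libraries above its 3 siControl libraries.

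With siALDOA, 2 of the 10 genes rose, none fell and 8 did not pass the test (edgeR's quasi-likelihood test, Benjamini-Hochberg adjusted p < 0.05 over all tested genes). Over the whole transcriptome 9.66% of tested genes were called, 4.36% as higher and 5.29% as lower. At the unadjusted p < 0.01 that the study used, the same 2 genes were called, both higher, against 12.5% of all tested genes, 5.72% higher and 6.74% lower. At an unadjusted p < 0.05 DEPTOR was added, making 3 of 10 against 23.6% of all tested genes. In number, 668 genes were higher and 810 lower, and scaling by library totals only turned this into 896 higher and 279 lower. The median log2 fold change of the 10 genes was 0.079, against 0.0016 over all tested genes. In bulk RNA, fewer cells carrying a transcript and less of it per cell cannot be told apart.

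**Figure D2:**
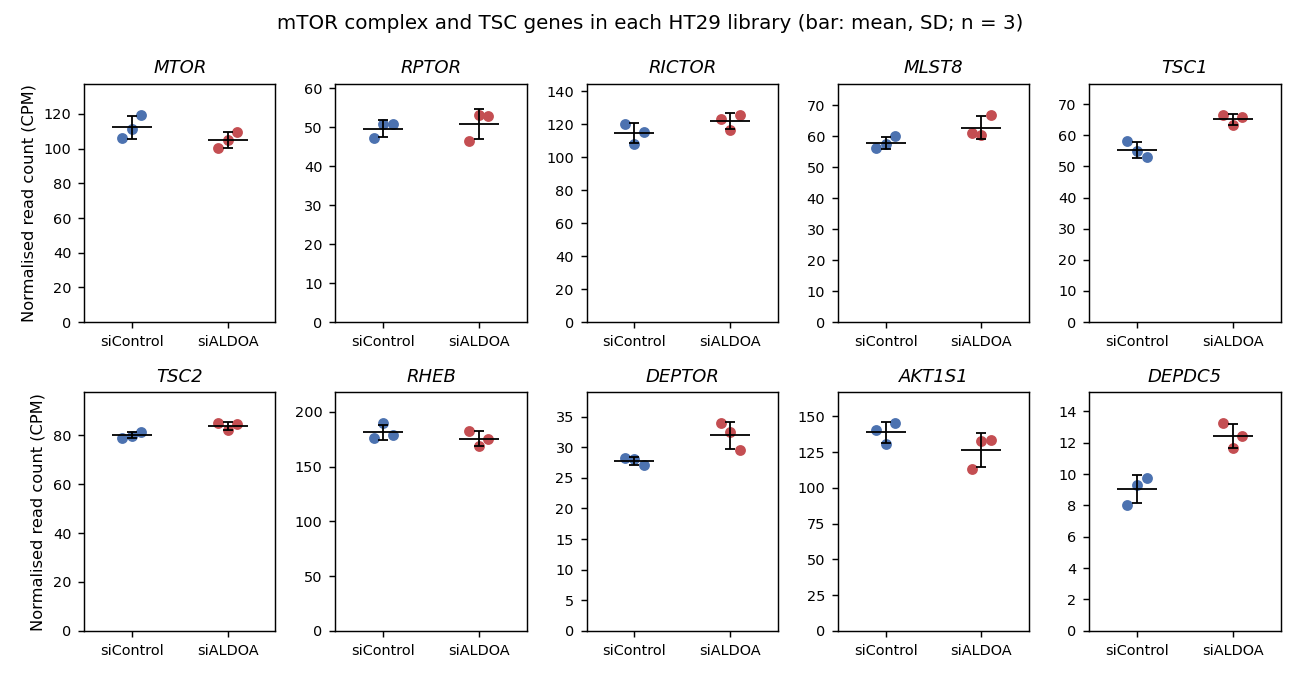
Normalised read counts (CPM, linear axis from 0) of the 10 genes in each library, with the mean and SD of 3 libraries per group. The siALDOA points lie above all siControl points for TSC1, TSC2, MLST8, DEPTOR and DEPDC5 and overlap them for the other 5 genes.

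DEPDC5 (ENSG00000100150, chromosome 22 of hg38, 31753867 to 31908033) is the subunit that binds the Rag GTPases in GATOR1, the complex that shuts off mTORC1 when amino acids are scarce. Its level was 13.2, 11.6 and 12.4 CPM in the siALDOA libraries and 8.05, 9.27 and 9.77 CPM in the siControl libraries. Every siALDOA library was above every siControl library. The mean rose from 9.03 ± 0.886 CPM in siControl to 12.4 ± 0.787 CPM in siALDOA (SD, n = 3 each), or by 0.46 on the log2 scale (standard error 0.12, 95% interval 0.21 to 0.71, adjusted p = 0.0170). This was an increase of 37.5%, and 94.2% of tested genes had a lower log2 fold change. Leaving out 1 library at a time removed the call in 3 of 6 fits, those that dropped siALDOA replicate 1 (adjusted p = 0.0516), siControl replicate 1 (0.0726) or siControl replicate 2 (0.0502). In the annotation, DEPDC5 shares 1809 exonic bases with an unnamed protein-coding gene, ENSG00000285404, whose reads could have been counted on DEPDC5.

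The other 2 subunits of GATOR1 did not pass the test. NPRL2, which carries the GTPase-activating site of the complex, was at 13.4, 11.8 and 12.4 CPM with siALDOA and 12.3, 13.3 and 14.7 CPM with siControl, a log2 fold change of -0.098 (95% interval -0.33 to 0.13). NPRL3 was at 58.9, 67.3 and 72.2 CPM with siALDOA and 57.3, 59.0 and 62.5 CPM with siControl, a log2 fold change of 0.15 (95% interval -0.0033 to 0.30). NPRL3 was called higher in the fit without siALDOA replicate 1. The groups overlapped for both genes, and the difference between the changes of the 3 subunits was not tested.

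TSC1 (ENSG00000165699, chromosome 9, 132891348 to 132946874) encodes hamartin, which stabilises TSC2 in the complex. It was at 66.6, 63.3 and 65.7 CPM in the siALDOA libraries and at 58.1, 55.1 and 53.0 CPM in the siControl libraries. The groups did not overlap, and the spread within the siALDOA group was small. TSC1 rose from 55.4 ± 2.56 CPM in siControl to 65.2 ± 1.74 CPM in siALDOA (SD, n = 3 each), or by 0.23 on the log2 scale (standard error 0.064, 95% interval 0.10 to 0.37, adjusted p = 0.0243). This was an increase of 17.6%. The adjusted p was 0.0731 when siALDOA replicate 3 was left out, 0.0968 for siControl replicate 2 and 0.150 for siControl replicate 3, so the call was lost in these 3 fits, while the log2 fold change stayed between 0.20 and 0.27.

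TSC2 (ENSG00000103197, chromosome 16, 2047967 to 2089491), which encodes tuberin, the subunit that inactivates RHEB, did not pass the test. Its level was 84.8, 82.1 and 84.8 CPM with siALDOA and 78.7, 79.7 and 81.2 CPM with siControl. The groups did not overlap but lay close together, and the log2 fold change was 0.070 (95% interval -0.053 to 0.19, adjusted p = 0.520). An increase of TSC2 as large as the estimate for TSC1 thus lay outside the interval. TSC2 shares 784 exonic bases with PKD1 on the opposite strand, and PKD1 had a log2 fold change of -0.090 (adjusted p = 0.425). TBC1D7, the smallest subunit of the TSC complex, averaged 9.15 ± 0.769 CPM in siALDOA and 9.37 ± 0.361 CPM in siControl libraries (SD, n = 3 each), and its log2 fold change was -0.035 (adjusted p = 0.903).

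RHEB (ENSG00000106615, chromosome 7, 151466012 to 151520120), the target of the TSC complex, was at 183, 169 and 175 CPM with siALDOA and at 176, 189 and 179 CPM with siControl. The groups overlapped. Its log2 fold change was -0.047 (95% interval -0.17 to 0.073, adjusted p = 0.682), and with library totals only it was 0.025. RHEBL1, a related GTPase with few reads, had 46, 53 and 40 counts with siALDOA and 17, 32 and 45 counts with siControl (log2 fold change 0.70, adjusted p = 0.240).

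**Figure D3:**
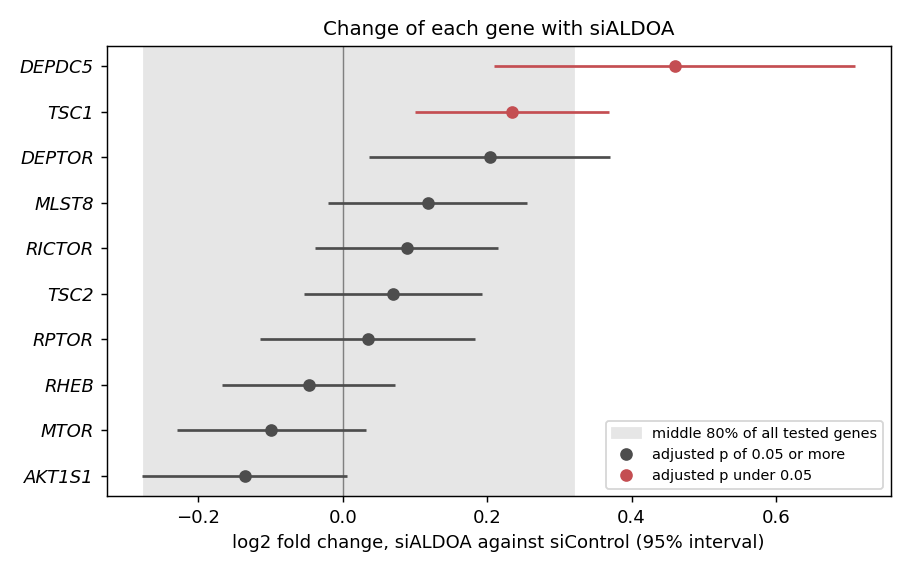
Log2 fold change of each gene, siALDOA against siControl, with its 95% interval. The grey band holds the middle 80% of all tested genes, from -0.28 to 0.32. DEPDC5 is the only one of the 10 estimates outside the band, and the intervals of DEPDC5, TSC1 and DEPTOR lie above 0.

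The kinase itself, MTOR (ENSG00000198793, chromosome 1, 11106535 to 11262556), was at 100, 105 and 110 CPM in the siALDOA libraries and 106, 111 and 120 CPM in the siControl libraries. The groups overlapped, and the log2 fold change was -0.099 (standard error 0.063, 95% interval -0.23 to 0.032, adjusted p = 0.368). RPTOR (ENSG00000141564, chromosome 17, 80544819 to 80966371), the scaffold that brings substrates to mTORC1, was at 46.4, 53.2 and 52.8 CPM with siALDOA and 47.2, 50.9 and 50.7 CPM with siControl. Its log2 fold change was 0.035 (95% interval -0.11 to 0.18, adjusted p = 0.823) and was within 0.001 of 0 without siALDOA replicate 2 or without siControl replicate 1. RICTOR (ENSG00000164327, chromosome 5, 38937920 to 39074402), the scaffold of mTORC2, was at 123, 116 and 126 CPM with siALDOA and 120, 108 and 115 CPM with siControl. The groups of RICTOR overlapped in these values, with a log2 fold change of 0.088 (95% interval -0.038 to 0.22, adjusted p = 0.413). For these 3 core genes every change beyond 0.23 in either direction on the log2 scale lay outside the 95% interval.

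MLST8 (ENSG00000167965, chromosome 16, 2204248 to 2209453), which stabilises the kinase domain in both complexes, was at 61.0, 60.5 and 66.9 CPM with siALDOA and 56.2, 57.4 and 59.97 CPM with siControl. The groups did not overlap, by a margin of less than 1 CPM, and the log2 fold change of 0.12 (95% interval -0.020 to 0.26, adjusted p = 0.297) did not pass the test. MAPKAP1, which encodes the mTORC2 subunit SIN1, averaged 49.8 ± 2.11 CPM in siALDOA and 54.8 ± 4.01 CPM in siControl libraries (SD, n = 3 each, log2 fold change -0.14, adjusted p = 0.239).

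Both inhibitory subunits lay below the threshold, with opposite signs. DEPTOR (ENSG00000155792), which binds the kinase in both complexes, was at 33.9, 32.4 and 29.6 CPM with siALDOA and 28.2, 28.02 and 27.1 CPM with siControl. The groups did not overlap. Its log2 fold change was 0.20 (standard error 0.080, 95% interval 0.036 to 0.37), with an unadjusted p = 0.0195 by edgeR's test and an adjusted p = 0.120. The adjusted p of DEPTOR ranged from 0.0699 with library totals only to 0.321 without siControl replicate 3. AKT1S1 (ENSG00000204673, chromosome 19, 49869033 to 49878459) encodes PRAS40, which holds back mTORC1 until AKT phosphorylates it. It was at 113, 133 and 133 CPM with siALDOA and 141, 131 and 145 CPM with siControl, with siALDOA replicate 1 lowest. Its log2 fold change was -0.14 (95% interval -0.28 to 0.0060, adjusted p = 0.235), and it was -0.062 without siALDOA replicate 1. AKT1S1 shares 151 exonic bases with TBC1D17 on the opposite strand.

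The groups did not overlap in 5 of the 10 genes, against 27.7% of all tested genes. In these 5, TSC1, TSC2, MLST8, DEPTOR and DEPDC5, all siALDOA libraries were above all siControl libraries, and in no member were they all below. Of all tested genes, 13.1% were separated upward and 14.6% downward. The margin was small for TSC2 and MLST8, and with library totals only the separated genes were RICTOR, TSC1, DEPTOR and DEPDC5, against 19.3% upward and 6.09% downward over all tested genes. TSC1, DEPTOR and DEPDC5 were separated under both scalings.

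To compare the genes without any scaling between libraries, 7 ratios of raw counts were formed within each library. The ratio of RICTOR to RPTOR, the scaffolds of mTORC2 and mTORC1, was 1.41, 1.13 and 1.25 on the log2 scale with siALDOA and 1.35, 1.09 and 1.18 with siControl. The groups overlapped, with a difference of 0.057 (exact permutation p = 0.6). In the other 6 ratios the groups did not overlap, each with an exact two-sided permutation p = 0.1, the smallest that 3 libraries against 3 can give (0.117 after Benjamini-Hochberg adjustment over the 7 ratios). No ratio could therefore pass a threshold of 0.05. The share of separated ratios among other pairs of tested genes was not computed, so this count has no background beside it. Of single tested genes, 27.7% were separated. The ratios use the same counts as the single genes above and are not a further result beside them.

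Of these ratios, DEPDC5 to RHEB differed most, at -3.79, -3.86 and -3.81 with siALDOA and -4.45, -4.35 and -4.19 with siControl, a difference of 0.51 in the log2 count ratio. TSC1 to TSC2 was -0.35, -0.38 and -0.37 with siALDOA and -0.44, -0.53 and -0.61 with siControl, a difference of 0.16. RHEB to TSC2 went the other way, with a difference of -0.12 between means of 1.07 ± 0.0379 (SD, n = 3) and 1.18 ± 0.0584 (SD, n = 3). The ratio of DEPTOR to MTOR was higher in every siALDOA library, with a difference of 0.30, and that of MLST8 to MTOR with a difference of 0.21. AKT1S1 to RPTOR had a difference of -0.17, with all 3 siALDOA libraries below all 3 siControl libraries. Ratios that contain the same gene are not independent of each other.

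**Figure D4:**
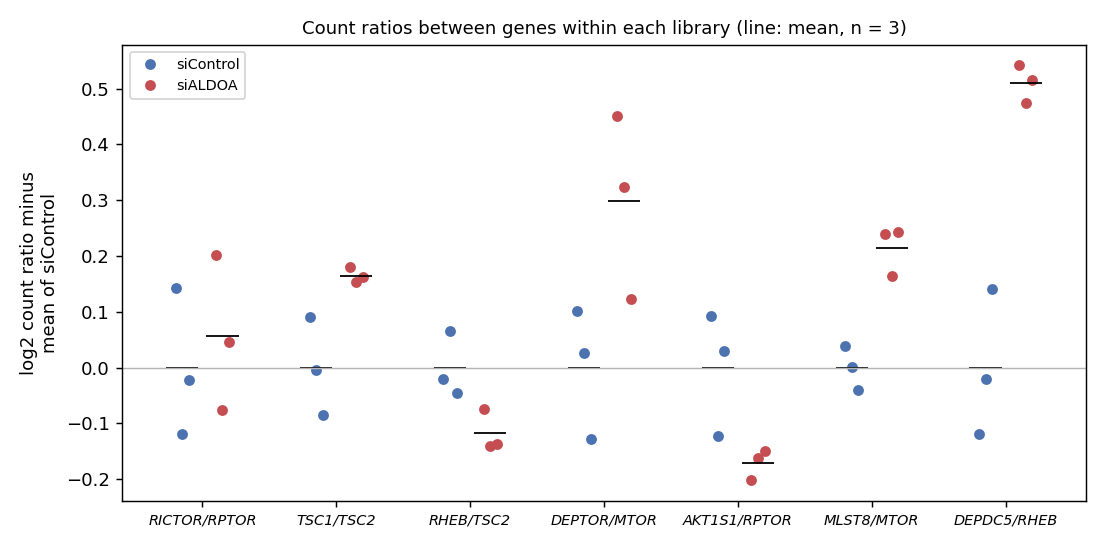
Log2 count ratio of each pair of genes in each library, shown as the difference from the siControl mean of that ratio, with lines at the group means (n = 3). The siControl and siALDOA points overlap for RICTOR/RPTOR and are separate for the other 6 ratios, most widely for DEPDC5/RHEB.

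The wider pathway was read from 7 lists of other genes, 85 in all, of which 79 were tested. None of them rose and 5 fell at an adjusted p < 0.05, 6.33% of those tested against 9.66% of all tested genes. By direction, 4.36% of all tested genes were called higher and 5.29% lower. At the unadjusted p < 0.01 of edgeR's test, 1 was higher, SESN1, and 6 were lower, the 5 and PIK3R2. Of all tested genes, 5.72% were higher and 6.74% lower at this threshold. DESeq2 called 0 higher and the same 6 lower at an adjusted p < 0.05, against 774 higher and 925 lower among all 15307 tested genes. The median log2 fold change of the 79 genes was -0.014. The tested lists held no call among 7 other complex subunits and assembly factors, 11 genes of GATOR1, GATOR2 and KICSTOR and 7 amino acid sensors. They held 1 call of 11 among Rag GTPases, Ragulator and folliculin, 1 of 17 among upstream kinases and phosphatases, 2 of 17 among mTORC1 substrates and effectors, and 1 of 9 among mTORC2 substrates, all lower.

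**Figure D5:**
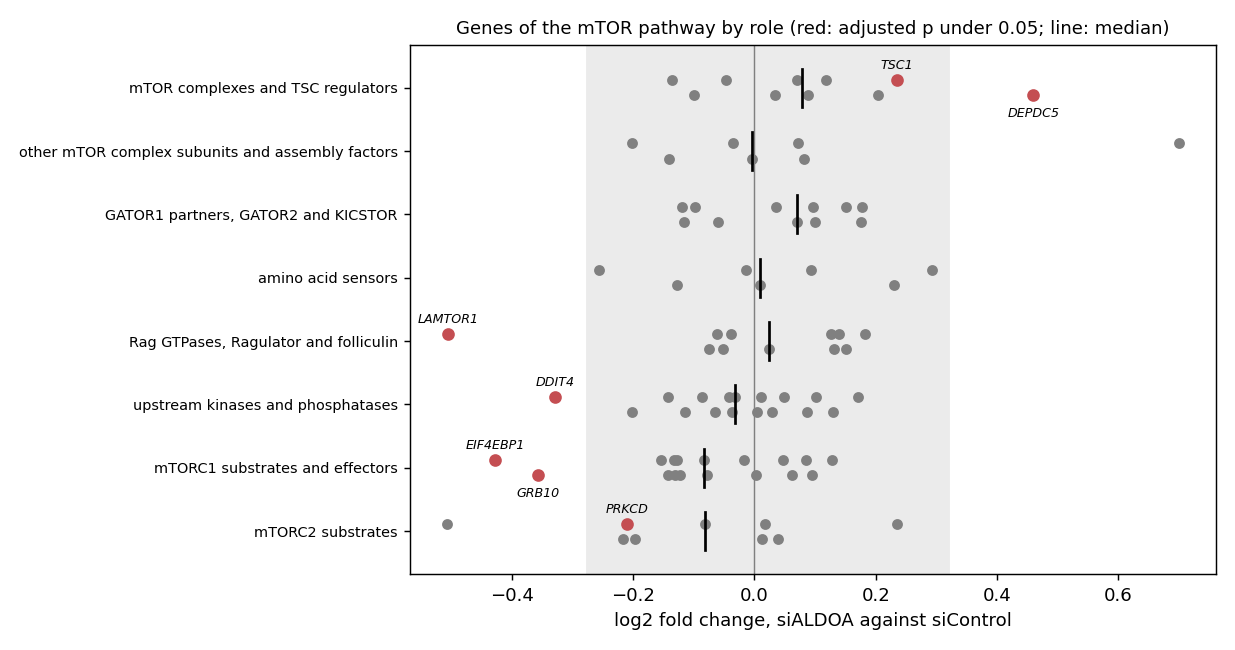
Log2 fold changes of the tested genes of the mTOR pathway by role, with the median of each list as a line, genes with an adjusted p under 0.05 in red and named, and the middle 80% of all tested genes in grey. TSC1 and DEPDC5 are the only genes called higher, and LAMTOR1, DDIT4, EIF4EBP1, GRB10 and PRKCD are called lower.

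LAMTOR1, the Ragulator subunit that anchors the Rag GTPases and mTORC1 to the lysosome, had the largest change of the 5 called genes. It was at 29.6, 35.2 and 32.0 CPM with siALDOA and 41.8, 48.4 and 47.3 CPM with siControl, which gave -0.51 on the log2 scale (standard error 0.081, adjusted p = 3.01e-04). EIF4EBP1, the repressor of cap-dependent translation that mTORC1 inactivates, was at 24.9, 31.6 and 30.2 CPM with siALDOA and 35.0, 41.0 and 40.7 CPM with siControl, a log2 fold change of -0.43 (adjusted p = 0.00433). Both kept an adjusted p < 0.05 under all 16 alternative fits.

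DDIT4, which encodes the stress protein REDD1, an activator of the TSC complex, was at 157, 172 and 147 CPM with siALDOA and 184, 214 and 200 CPM with siControl. It changed by -0.33 on the log2 scale (adjusted p = 0.00283, or 0.0626 with library totals only). GRB10, an adaptor that dampens insulin receptor signalling and is phosphorylated by mTORC1, changed by -0.36 (adjusted p = 0.00886), and its adjusted p was 0.0733 without siControl replicate 3 and 0.0831 with library totals only. PRKCD, protein kinase C delta, changed by -0.21 (adjusted p = 0.0417) and kept the call in only 1 of 6 fits with a library left out, that lacking siALDOA replicate 3. With library totals only PRKCD changed by -0.14 (adjusted p = 0.379), and when ribosomal RNA genes were left out as well by -0.20 (adjusted p = 0.0521). In LAMTOR1, EIF4EBP1, DDIT4, GRB10 and PRKCD all siALDOA libraries were below all siControl libraries.

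Several central kinases of the pathway did not pass the test at the mRNA level. RPS6KB1, the S6 kinase, averaged 35.7 ± 2.74 CPM in siALDOA and 39.3 ± 2.74 CPM in siControl libraries (SD, n = 3 each, adjusted p = 0.297). ULK1, the autophagy kinase that mTORC1 inhibits and AMPK activates, changed by -0.15 (95% interval -0.29 to -0.013, adjusted p = 0.167), with groups that did not overlap. AKT1 changed by 0.049 (95% interval -0.083 to 0.18) and PRKAA1, the catalytic subunit of AMPK, by -0.037 (95% interval -0.15 to 0.077). SESN1, a sestrin that signals leucine shortage to GATOR2, had a log2 fold change of 0.23 (adjusted p = 0.0778) and passed with library totals only (adjusted p = 0.0466). SESN2, RRAGD, RPS6KA1 and EEF2K were listed at 0 in every library, and PRKAA2 had 2 counts in 1 library. Transcript levels do not measure the phosphorylation or activity of these kinases.

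For MTOR, TSC2 and RHEB the genes with the most similar profile were looked up among 10078 tested genes of at least 10 CPM, by Pearson's r of log2 CPM over the 6 libraries. PRKAR1A (r = 0.997), MIEF2 (0.993) and UBXN6 (0.989) were closest to MTOR. PIF1 (r = 0.992), YIPF1 (0.986) and AXIN2 (0.985) were closest to TSC2, and DUSP14 (r = 0.993), ING3 (0.991) and BCCIP (0.983) to RHEB. Of these 9 genes, AXIN2 was higher with siALDOA by 0.29 (adjusted p = 0.00480), and the other 8 did not pass the test. The 6 points share their libraries and scaling, and the closest of many genes were chosen, so these values only describe.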

How the data were processed

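RNA of 6 HT29 libraries, 3 siALDOA and 3 siControl, was compared. The deposited files hold raw read counts per gene symbol, 1 library per file. Reads were aligned by the authors to hg38 with TopHat2 and counted with gfold; annotation, strand setting and multi-mapped reads are not given in the sources used here. No column held values of the authors' own comparisons.

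Counts were tested in R 4.3.3 with edgeR 4.0.16 (filterByExpr, TMM, quasi-likelihood F-test, all 6 libraries, no covariate) and Benjamini-Hochberg adjustment. CPM used TMM-scaled totals, and log2 CPM a prior count of 2. The standard error of a log2 fold change was taken as its size over the root of the F statistic. Intervals assume the t distribution of the fit. The scripts were tested on simulated data. Ratios added 0.5 to each count and used exact permutation tests (scipy 1.17.1).

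Alternatives were limma-voom (limma 3.58.1), DESeq2 1.42.0, the likelihood ratio test, library totals only, upper quartile, no filter, at least 10 counts in every library, no ribosomal RNA genes, the replicate number as a block, and leaving out each library in turn. Leaving out ribosomal RNA genes together with library totals only was chosen after seeing the data. Ratios were also formed with 2 added to each count.

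The members, lists and tests were chosen with earlier results of these data known. Named were the 10 members, ALDOA, up to 5 called genes per list by p, a fixed set of pathway genes, the 3 genes most like MTOR, TSC2 and RHEB, and genes with shared exons, some of which are not reported here. RHEBL1, SESN1, PIK3R2, NDRG1 and genes listed at 0 were named after their values were seen. Genes, exons and lengths came from GENCODE release 44 (hg38), promoters from RefSeq (GRCh38.p14), matched by symbol.

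Same-numbered libraries of both groups were checked for pairing, and no 2 libraries of a group were alike within sampling noise. CPM carry counting error as well as replicate error, and depth was from 27277538 to 33237914 counts per library.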

Additional observations from a re-analysis of the deposited data

How the results depend on the processing

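TSC1 and DEPDC5 were called higher in all 10 alternatives that kept every library, with log2 fold changes from 0.23 to 0.31 and from 0.46 to 0.53. No other member was called in any of the 16 alternatives. When 1 library was left out, 0 to 2 members were called higher, with 0 without siControl replicate 2. Over those 6 fits the log2 fold change ranged from 0.20 to 0.27 for TSC1, from 0.38 to 0.52 for DEPDC5 and from -0.00051 to 0.095 for RPTOR. The genes called over the transcriptome ranged from 834 to 1434, with 359 to 644 higher and 471 to 790 lower, the lowest totals being 849 without siControl replicate 2 and 834 without siControl replicate 3. Among pathway genes 0 to 1 were called higher (NPRL3 without siALDOA replicate 1, NDRG1 without siALDOA replicate 3) and 3 to 5 lower. The difference in the RICTOR to RPTOR ratio ranged from -0.015 to 0.13, and the other 6 ratios kept their sign in all their alternatives.

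With library totals only, all tested genes had a median log2 fold change of 0.075, 279 genes were lower, 1 pathway gene was higher and 2 were lower, and RHEB changed by 0.025. When ribosomal RNA genes were left out before the same scaling, the median was 0.0099, 735 genes were higher and 760 lower, 0 pathway genes were higher and 4 lower, and RHEB changed by -0.039. Without a filter on low counts, 1 pathway gene, NDRG1, was called higher. The cause of that call was not tested.

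Same-numbered libraries deviated together only weakly, with correlations of 0.035, 0.027 and 0.026 for numbers 1, 2 and 3, so the numbers were not taken as pairs. Each library correlated best with its own number, a hint from the data and not from the design. A replicate block gave 2162 called genes in place of 1478, with the same 2 members called. With the block, 1 pathway gene, SESN1, was higher, and 7 were lower in place of 5. For the ratios the block gave an exact permutation p = 0.25, the smallest that 3 pairs allow, for all 7. Depth limits DEPDC5 most among the members, with 251 to 368 counts per library.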
